A study of Saccharomyces cerevisiae with 16 samples.

Results

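The genes described here encode the proteasome of budding yeast, Saccharomyces cerevisiae, together with RPN4, the gene of its transcriptional activator. They were taken by name from the deposited table: every gene called PRE, PUP, RPN or RPT followed by a number, and SCL1. Of 6692 genes, 34 met this rule. RPN4 is reported on its own, which left 33 genes: 32 subunits of the particle (7 of the alpha ring, 7 of the beta ring, 10 of the base and 8 of the lid) and RPN14, which carries a subunit name but encodes a chaperone that helps to assemble the base. A subunit with another kind of name falls outside this rule, and SEM1 is counted below with the associated proteins. All 33 genes and RPN4 had enough reads to be tested, among 5876 tested genes in all.

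The proteasome is the protease that degrades proteins tagged with ubiquitin. Its core particle is a barrel of alpha rings, which gate the entrance, around beta rings, which hold the cutting sites; the regulatory particle on its ends has a base with a ring of ATPases that unfold substrates, and a lid that removes the ubiquitin chain. In yeast Rpn4 binds the proteasome-associated control element (PACE) before these genes and drives them together, and as a short-lived substrate of the proteasome it closes a feedback loop.

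Messenger RNA was sequenced in 16 libraries, in 4 groups of 4 numbered 2 to 5 by the submitters. The H3 WT group is labelled as wild type, and H3 H113N carries asparagine for histidine in histone H3. H3 WT YFH1-off carries YFH1, the frataxin gene needed for iron-sulfur cluster assembly, behind the GAL1 promoter, p(GAL1)-YFH1, and H3 H113N YFH1-off carries both changes. Neither group with YFH1 on carries p(GAL1)-YFH1, so the shutoff and the altered promoter cannot be told apart. All cells were grown in fermentative medium; the growth text is worded for YFH1-off cells but is attached to every sample, and describes a move from YPG to SC at 30 °C and an OD600 of 1, with a dilution every 12 h for 36 h and 8 h more, 44 h in all. The series title ties the H3 mutation to a cupric reductase activity of H3 and asks how far it changes the response to low YFH1.

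The libraries held 6694390 to 10663540 counts on genes, and the floor of 3 counts stood at 0.279 to 0.487 CPM, far below the proteasome genes. Levels are given as CPM, the gene's reads scaled to the size of the library after TMM scaling; they are shares of the messenger RNA, so a change in a share and a change in RNA per cell cannot be told apart. YFH1 stood at 63.5 ± 3.31 CPM in H3 WT and 7.16 ± 1.29 CPM in H3 WT YFH1-off, and at 51.8 ± 5.06 CPM in H3 H113N and 10.6 ± 1.74 CPM in H3 H113N YFH1-off (mean ± SD, n = 4 each). A gene is called here when its adjusted p by edgeR's quasi-likelihood test, adjusted by Benjamini-Hochberg (BH) over the 5876 genes, is under 0.05.

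The H3 WT libraries differed among themselves, in these genes and over all genes, which touches every comparison with that group. Over all genes, the counts of replicate 2 gave a chi-square over its degrees of freedom of 53.04 to 74.69 against the other 3, which gave 4.147 to 8.379 among themselves. The 33 proteasome genes summed to 8780, 8198, 7642 and 6929 CPM in replicates 2, 3, 4 and 5 of H3 WT. Replicate 2 was the highest of the 4 for 28 of the 33 genes and replicate 5 the lowest for 32. The median coefficient of variation of the 33 genes was 10.3% in H3 WT, against 3.66% in H3 WT YFH1-off, 3.8% in H3 H113N and 4.47% in H3 H113N YFH1-off. The sums ran from 7405 to 7800 CPM in H3 WT YFH1-off, from 7568 to 7859 CPM in H3 H113N and from 6589 to 7166 CPM in H3 H113N YFH1-off. The range of the H3 H113N YFH1-off sums thus overlapped only that of H3 WT. Within H3 WT YFH1-off, H3 H113N and H3 H113N YFH1-off the sum rose with each replicate number from 2 to 5, the reverse of the order in H3 WT. The counts of called genes are given below without replicate 2 or 5 of H3 WT where that changed them.

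The PACE motif is named for the proteasome genes, so its presence before most of them is a description and not a test. Its letters GGTGGCAAA, or the reverse complement TTTGCCACC, were found in the 300 bases before the start codon of 27 of the 33 genes (81.8%), against 72 of 5985 yeast promoters of that length (1.2%). The 5985 promoters include those of the 33 genes. The core of 7 letters, GGTGGCA or TGCCACC, lies within the motif and gave the same 27 genes, and 162 of all promoters (2.71%). Each of the 27 held 1 motif, 19 on the strand of the gene and 8 on the other, at 75 to 174 bases before the start codon (median 111). By subcomplex it stood before 6 of 7 alpha, 6 of 7 beta, 8 of 10 base and 7 of 8 lid genes. The windows below are those of RPN4, of the gene of each subcomplex with the motif that changed most on YFH1 shutoff in H3 WT, and of RPN10, which changed least among genes without it. They come from the RefSeq sequence of assembly R64 (sacCer3), run 5′ to 3′ on the strand of the gene and leave out the 80 bases next to the start codon, with the motif in capitals.
RPN4, chrIV:416789-417008, minus strand: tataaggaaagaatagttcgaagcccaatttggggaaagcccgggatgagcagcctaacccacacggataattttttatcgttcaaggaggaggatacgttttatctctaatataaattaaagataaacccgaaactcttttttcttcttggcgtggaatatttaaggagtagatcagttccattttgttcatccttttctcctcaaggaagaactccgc
PRE8, chrXIII:86820-87039, minus strand: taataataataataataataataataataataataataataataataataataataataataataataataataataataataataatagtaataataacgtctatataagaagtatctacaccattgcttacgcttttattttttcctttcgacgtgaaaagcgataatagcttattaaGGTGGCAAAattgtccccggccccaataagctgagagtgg
PUP3, chrV:349427-349646, minus strand: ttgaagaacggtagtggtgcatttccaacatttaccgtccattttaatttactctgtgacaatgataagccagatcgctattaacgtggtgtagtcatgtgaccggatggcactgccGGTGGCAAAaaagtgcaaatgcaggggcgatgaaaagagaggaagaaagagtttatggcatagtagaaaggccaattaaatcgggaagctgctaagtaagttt
RPT2, chrIV:437747-437966, plus strand: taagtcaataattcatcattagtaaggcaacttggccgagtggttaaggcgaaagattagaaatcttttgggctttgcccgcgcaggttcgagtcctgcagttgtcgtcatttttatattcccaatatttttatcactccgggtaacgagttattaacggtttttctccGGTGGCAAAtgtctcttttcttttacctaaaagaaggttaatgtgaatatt
RPN9, chrIV:1321905-1322124, plus strand: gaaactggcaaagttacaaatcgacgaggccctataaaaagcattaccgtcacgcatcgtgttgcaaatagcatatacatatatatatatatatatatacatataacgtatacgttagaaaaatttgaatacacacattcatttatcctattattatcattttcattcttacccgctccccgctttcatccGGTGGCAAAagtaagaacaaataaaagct
RPN10, chrVIII:498779-498998, plus strand: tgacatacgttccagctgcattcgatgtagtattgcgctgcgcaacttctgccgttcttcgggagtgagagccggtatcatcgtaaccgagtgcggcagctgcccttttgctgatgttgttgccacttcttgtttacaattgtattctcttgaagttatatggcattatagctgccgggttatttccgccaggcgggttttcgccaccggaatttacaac
The RPT2 window holds the noncoding gene YNCD0006W, that of RPN9 reaches into YDR425W and that of RPN10 into YHR199C-A. RPN4's own 300 bases held no match to the motif.

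PRE5, PUP1, RPN8, RPN10, RPN13 and RPN14 lacked the exact letters. With 1 mismatch allowed, all 32 subunit genes had a match and RPN14 had none, so that 32 of 33 genes (97.0%) matched, against 462 of all promoters (7.72%); this looser search was added after the exact one had been seen. The stretches of these 5 subunits, with the 9 aligned letters in capitals, can be set beside those of RPT1, RPN1 and PRE7, whose levels are described below and whose promoters hold the exact motif.
PRE5: cctattatagAGTGGCAAAattaaaaatt
PUP1: aacccggccgAGTGGCAAAataccaaaaa
RPN8: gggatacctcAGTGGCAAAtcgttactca
RPN10: caggcgggttTTCGCCACCggaatttaca
RPN13: ttattcgcgaGGTGGCGAAagctttgcta
RPT1: attaccgaatTTTGCCACCcgaaaactaa
RPN1: tgtgttttacGGTGGCAAAaggcgagcac
PRE7: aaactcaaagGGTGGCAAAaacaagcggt
A match of letters is a description and does not show that Rpn4 binds there. Of the other genes of the pathway examined, 0 of 9 assembly factors held the exact motif, 1 of 8 associated proteins (ECM29), 3 of 16 genes of ubiquitin and substrate delivery (UBA1, UBI4 and CDC48) and 1 of 7 genes known to control RPN4 (YAP1, at 37 bases before the start codon).

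RPN4 differed between the groups by up to 1.33-fold. Its level was 113.2, 110.8, 116.2 and 121.5 CPM in replicates 2 to 5 of H3 WT. In H3 WT YFH1-off it was 134.2, 129.6, 134.6 and 135.0 CPM, every library above every H3 WT library. H3 H113N libraries stood highest, at 154.2, 161.6, 152.9 and 147.3 CPM, without overlap with any other group. H3 H113N YFH1-off libraries held 136.6, 133.9, 136.3 and 135.6 CPM, which overlapped the range of H3 WT YFH1-off.

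When YFH1 was off in H3 WT, RPN4 rose by 0.21 on the log2 scale (standard error, SE, 0.042, edgeR adjusted p = 0.000573). In H3 H113N it fell on shutoff, with a log2 fold change of -0.18 (SE 0.0415, edgeR adjusted p = 0.00455). The difference between these responses, the interaction of H3 genotype and YFH1 state, was -0.39 (SE 0.0591, edgeR adjusted p = 8.08e-05). With YFH1 on, RPN4 was higher in H3 H113N than in H3 WT by 0.42 on the log2 scale (SE 0.0418, edgeR adjusted p = 7.3e-07), and with YFH1 off the difference was 0.024 (SE 0.0417, edgeR adjusted p = 0.664). In the authors' deposited table the adjusted p of RPN4 was 0.000387 for the shutoff in H3 WT, 0.00179 for that in H3 H113N, 4.53e-14 for the genotypes with YFH1 on and 0.837 with YFH1 off. Scaling by library size alone, without TMM, left the rise in H3 WT short of the threshold (0.093, edgeR adjusted p = 0.122) and made the genotype difference with YFH1 off a call (0.15, edgeR adjusted p = 0.014). Under that scaling all tested genes had a median log2 fold change of -0.107 for the shutoff in H3 WT and 0.133 for the genotypes with YFH1 off, against 0.0087 and 0.0055 with TMM.

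**Figure D1:**
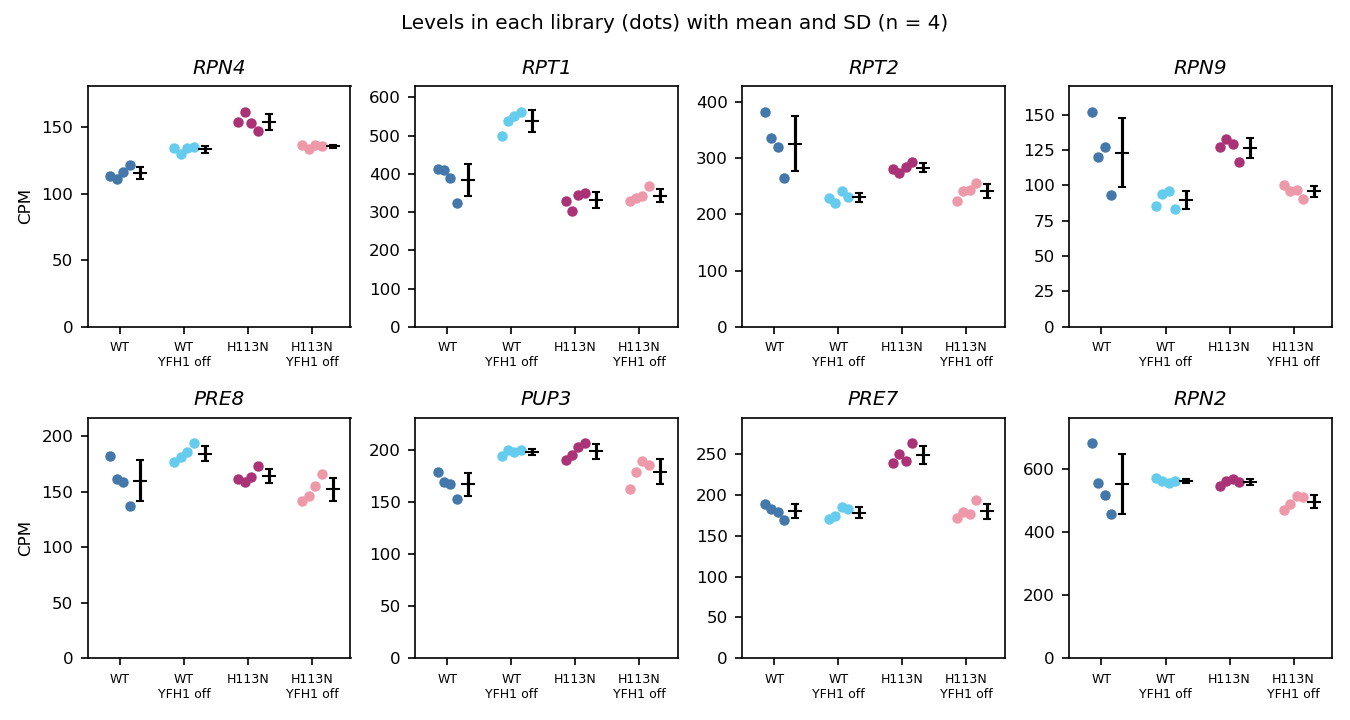
CPM on TMM-scaled library sizes (y axes, from 0) of RPN4 and 7 proteasome genes in each library (dots, from replicate 2 on the left to 5 on the right) with the mean and SD of each group (n = 4). RPN4 was highest in H3 H113N, RPT1 in H3 WT YFH1-off and PRE7 in H3 H113N, and the H3 WT libraries were spread most widely for RPT2, RPN9 and RPN2.

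YFH1 shutoff in H3 WT moved single subunit genes in both directions and left most near their level. Of the 33 genes, 4 rose, where 24.5% of all tested genes rose, and 6 fell, where 25% fell; 23 were not called. The genes that rose were the alpha subunit PRE8, the beta subunit PUP3, the base ATPase RPT1 and the chaperone RPN14. Those that fell were 4 of the base, the ATPases RPT2, RPT3 and RPT5 and the scaffold RPN1, which docks ubiquitin carriers, and 2 of the lid, RPN8 and RPN9. The median log2 fold change of the 33 was -0.062, against 0.0087 over all tested genes, and 27 of them lay within 0.25 of 0. None reached a log2 fold change of 1 in any of the comparisons. The share called was near or below that of all genes in both directions. On library size alone 1 of the 33 was called higher and 19 lower, while over all tested genes 933 were higher and 2087 lower; the median of the 33 relative to that of all genes was -0.070 under either scaling. Without replicate 5 of H3 WT the split was 3 higher and 12 lower and the median -0.105, while over all genes 1367 were higher and 1454 lower. Without its replicate 2 it was 7 and 5 with a median of -0.014, and over all genes 1621 and 1604.

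The base held the largest moves, in opposite directions. RPT1 was measured at 412.1, 409.2, 389.9 and 323.9 CPM in H3 WT and 498.4, 539.6, 552.0 and 562.5 CPM in H3 WT YFH1-off, with no overlap. Its log2 fold change was 0.49 (SE 0.0724, edgeR adjusted p = 2.96e-05). RPT2, another ATPase of the same ring, went from 382.5, 336.2, 319.4 and 264.9 CPM in H3 WT to 228.3, 220.8, 241.2 and 230.2 CPM in H3 WT YFH1-off. Every H3 WT library was above every YFH1-off library for RPT2, and the log2 fold change was -0.50 (SE 0.0807, edgeR adjusted p = 6.89e-05). RPN1 fell by 0.34 on the log2 scale (SE 0.058, edgeR adjusted p = 0.000133), from 573.4 to 712.1 CPM over the H3 WT libraries to 489.7 to 518.8 CPM in H3 WT YFH1-off. RPT5 fell by 0.22 and RPT3 by 0.17, with adjusted p by edgeR of 0.00286 and 0.0319. Of the other base genes, the scaffold RPN2 changed least (0.025, edgeR adjusted p = 0.824): it stood at 682.2, 555.0, 516.7 and 458.9 CPM in H3 WT and 572.5, 561.2, 556.7 and 561.5 CPM in H3 WT YFH1-off, all within the H3 WT range. RPT4, RPT6 and the ubiquitin receptors RPN10 and RPN13 were not called, at -0.14, -0.062, 0.041 and -0.072 on the log2 scale.

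In the lid, RPN9 was lowest of all subunits per length and fell furthest. It was measured at 152.1, 120.2, 127.3 and 93.2 CPM in H3 WT and 85.5, 94.2, 96.2 and 83.7 CPM in H3 WT YFH1-off, where the lowest H3 WT library overlapped the range with YFH1 off. The log2 fold change was -0.45 (SE 0.105, edgeR adjusted p = 0.00175). RPN8, the partner of the deubiquitinase Rpn11, fell by 0.26 on the log2 scale (SE 0.059, edgeR adjusted p = 0.00132), from 190.1 to 229.7 CPM in H3 WT to 170.2 to 185.8 CPM, without overlap. RPN12 changed least: H3 WT libraries held 116.9, 114.6, 103.1 and 91.5 CPM and H3 WT YFH1-off libraries 107.1, 92.9, 113.5 and 107.7 CPM (log2 fold change -0.015, edgeR adjusted p = 0.892). RPN3, RPN5, RPN6, RPN7 and RPN11 lay between -0.14 and 0.11 on the log2 scale and were not called.

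Changes in the core particle were smaller. PUP3, a beta subunit without a cutting site, was measured at 179.1, 168.9, 167.1 and 152.7 CPM in H3 WT and 194.3, 200.1, 198.1 and 199.4 CPM in H3 WT YFH1-off. These groups did not overlap, and the log2 fold change was 0.25 (SE 0.0555, edgeR adjusted p = 0.00148). PRE8 stood at 182.6, 161.8, 158.9 and 137.3 CPM in H3 WT and 177.0, 181.5, 185.8 and 193.8 CPM in H3 WT YFH1-off, where replicate 2 of H3 WT lay within the YFH1-off range (log2 fold change 0.21, SE 0.0719, edgeR adjusted p = 0.0257). Of 22 alternative analyses, the call of PRE8 was lost in 8, that of RPT3 in 6, and those of PUP3 and RPN14 in 1, with library size alone (adjusted p by edgeR 0.0695 and 0.126). PRE10, which changed least in the alpha ring, was at 264.6, 256.8, 235.6 and 201.8 CPM in H3 WT and 230.7, 242.4, 245.7 and 243.7 CPM in H3 WT YFH1-off (log2 fold change 0.0058, edgeR adjusted p = 0.953). The 3 beta subunits that cut peptide bonds were not called: PRE3, PUP1 and PRE2 had log2 fold changes of 0.13, -0.13 and 0.061. RPN14 rose from 34.2, 27.9, 32.6 and 30.5 CPM in H3 WT to 36.3, 39.0, 37.3 and 36.7 CPM in H3 WT YFH1-off, without overlap (log2 fold change 0.25, SE 0.0697, edgeR adjusted p = 0.0062).

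The responses of genes with and without the PACE motif overlapped. In H3 WT the 27 genes with the motif had a median log2 fold change of -0.055 and ran from -0.50 to 0.49, with 3 called higher and 5 lower. The 6 without it had a median of -0.10 and ran from -0.26 to 0.25, with 1 called higher and 1 lower. Both extremes, RPT1 and RPT2, carry the motif, 146 and 122 bases before the start codon. Beside the higher level of RPN4 in H3 WT YFH1-off, 13 of the 33 genes had a log2 fold change above 0 and 20 below 0. Of all tested genes 3000 were above 0 and 2876 below. The Rpn4 protein was not measured, and a link between RPN4 and these changes was not tested.

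**Figure D2:**
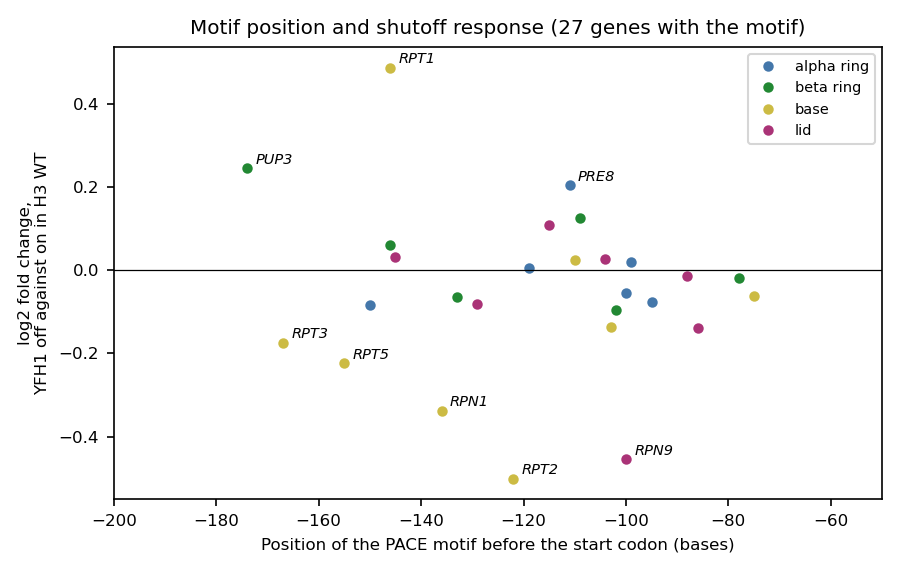
Log2 fold change of YFH1 off against on in H3 WT (y axis) against the position of the PACE motif, in bases before the start codon (x axis), for the 27 genes with the motif, coloured by subcomplex. The 5 genes with the motif nearest the start codon, at 75 to 95 bases, lie below 0, and farther out, at 99 to 174 bases, genes lie on both sides of 0; RPT1 at 0.49 and RPT2 at -0.50 are the extremes.

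YFH1 shutoff in H3 H113N gave calls in 1 direction among the proteasome genes. Of the 33 genes, edgeR called 0 higher, where 11.8% of all tested genes rose, and 8 lower, where 8.73% fell. DESeq2 called 0 higher and 13 lower, where over all genes it called 682 higher and 569 lower. At an unadjusted p under 0.05 by edgeR 0 were higher and 20 lower. All genes were not counted at that threshold, so the shares above cannot be set beside these counts. The median log2 fold change of the 33 was -0.165, against 0.023 over all tested genes, and 31 of the 33 were below 0. In 21 genes every H3 H113N YFH1-off library was below every H3 H113N library, a pattern found in 11% of all tested genes. Those called were PRE5 and PRE6 of the alpha ring, PRE1 and PRE7 of the beta ring, the ubiquitin receptor RPN13 of the base, and RPN3, RPN8 and RPN9 of the lid. The count changed with the libraries in the fit. In a fit of the 8 H3 H113N libraries alone it was 23, all lower, while over all genes of that fit 720 were higher and 761 lower. It was 19 without replicate 2 of H3 WT, 18 without replicate 5 of H3 WT and 13 without replicate 2 of H3 WT YFH1-off. Over all genes, 689, 599 and 586 were called lower in these fits. On library size alone 21 were called lower, while over all tested genes 472 were higher and 797 lower. The median of the 33 relative to that of all genes was -0.188 under either scaling.

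PRE7, a beta subunit, had the largest of these changes. H3 H113N libraries held 239.3, 249.9, 241.8 and 263.3 CPM and H3 H113N YFH1-off libraries 171.8, 178.5, 176.2 and 193.6 CPM, with no overlap. The log2 fold change was -0.47 (SE 0.0507, edgeR adjusted p = 7.59e-06). In H3 WT the same gene was at 189.0, 183.0, 179.7 and 169.9 CPM, and with YFH1 off at 170.2, 174.7, 184.8 and 182.6 CPM, so that H3 H113N stood alone above the other groups. PRE7 lies on chromosome II, whose 414 tested genes as a whole were also high in H3 H113N. Relative to the mean of H3 WT, their median log2 level was 0.241, 0.181, 0.174 and 0.284 in replicates 2 to 5 of H3 H113N, and between 0.0144 and 0.0371 in H3 H113N YFH1-off. The 92 genes of chromosome I, which holds none of the 33, were high in H3 H113N too, by 0.153 to 0.306. For H3 H113N against H3 WT with YFH1 on, the medians were 0.213 on chromosome II and 0.216 on chromosome I, against -0.061 to 0.11 on the other 14 chromosomes. The other genes of the pathway on chromosome II that were examined, UMP1, HSM3, UBC4, NPL4, SHP1 and PDR3, were also called higher in H3 H113N. PRE7 differed by 0.46 between genotypes and -0.47 on shutoff, where the medians of its chromosome were 0.213 and -0.172. Its interaction was -0.45, where the median of the chromosome was -0.159. A median does not give the spread of single genes around it, and the part of the chromosome's level in the PRE7 result was not tested.

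RPN9 fell in H3 H113N as well, from 127.1, 132.8, 129.4 and 116.3 CPM to 100.1, 96.0, 96.9 and 90.7 CPM, without overlap (log2 fold change -0.40, SE 0.104, edgeR adjusted p = 0.0115). The fall of RPN8 was 0.26 on the log2 scale in each genotype. RPN3 fell by 0.31, from 286.1 to 311.8 CPM to 225.9 to 256.1 CPM (SE 0.0704, edgeR adjusted p = 0.00469). PRE1 fell by 0.22 and RPN13 by 0.19, and the calls of PRE5 (-0.20) and PRE6 (-0.17) were lost in some of the alternatives. RPT1 did not follow its rise in H3 WT: it was at 329.3, 302.0, 345.1 and 348.9 CPM in H3 H113N and 327.9, 336.5, 341.3 and 367.8 CPM in H3 H113N YFH1-off, overlapping throughout (0.051, edgeR adjusted p = 0.684). RPT2 had a log2 fold change of -0.23 that did not pass the threshold (edgeR adjusted p = 0.0513), although its H3 H113N libraries, 281.5, 273.9, 284.8 and 293.3 CPM, were all above the H3 H113N YFH1-off libraries, 224.3, 241.5, 243.7 and 255.6 CPM.

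Side by side, the shutoffs in H3 WT and H3 H113N, which share no library, lowered RPN8 and RPN9 in both. PRE8, PUP3, RPT1 and RPN14 were called higher in H3 WT and in no direction in H3 H113N. RPN1, RPT2, RPT3 and RPT5 were called lower in H3 WT only, and PRE1, PRE5, PRE6, PRE7, RPN3 and RPN13 in H3 H113N only; 17 genes were called in neither. No gene was called in opposite directions. A call in one genotype and not the other is not a difference between them, which the interaction tests.

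**Figure D3:**
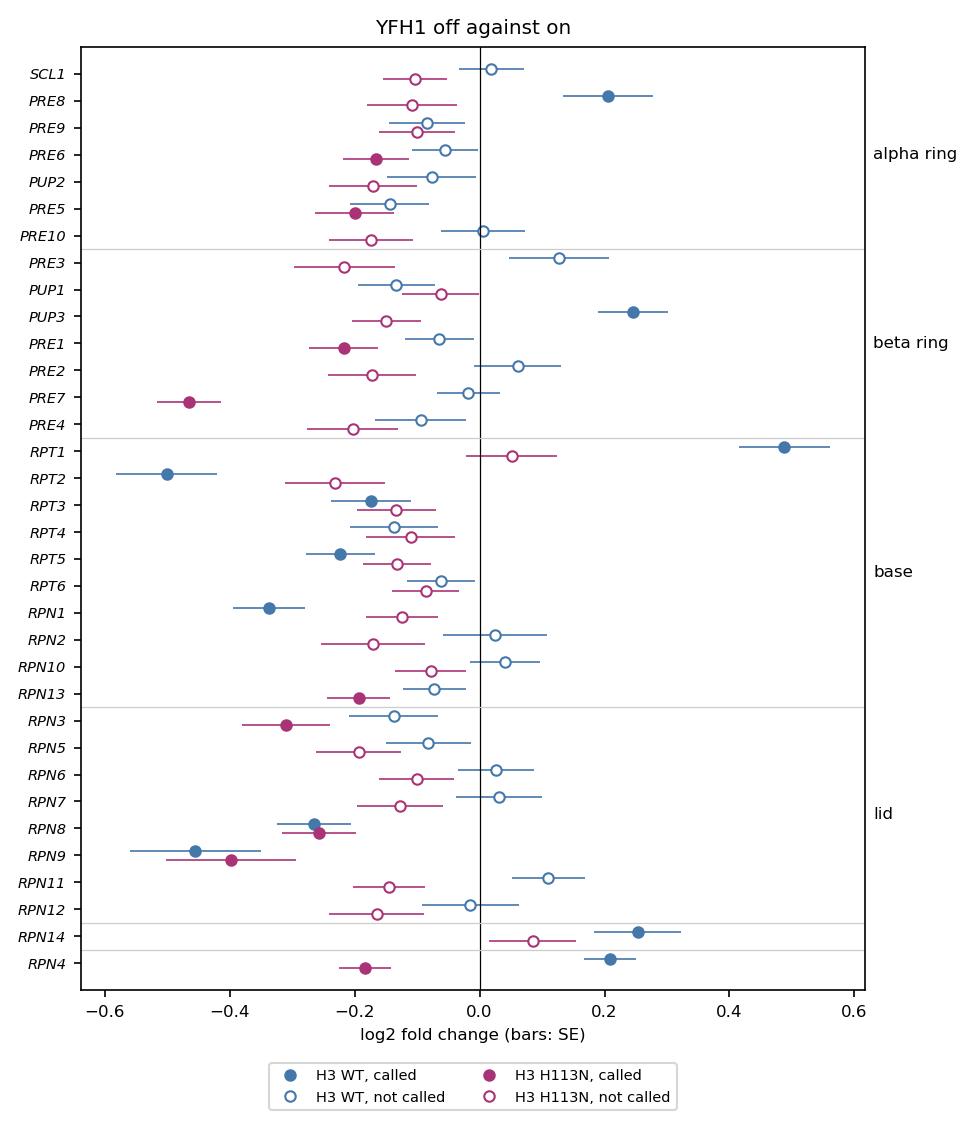
Log2 fold change of YFH1 off against on (x axis, bars SE) for the 33 proteasome genes and RPN4, grouped by subcomplex, in H3 WT (blue) and H3 H113N (purple); filled points are called at an adjusted p under 0.05. The points of H3 WT lie on both sides of 0, from -0.50 to 0.49, while 31 of the 33 proteasome genes in H3 H113N lie below 0.

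The interaction, the response in H3 H113N minus that in H3 WT, was called negative for 6 of the 33 genes, where 13.8% of all tested genes were negative, and positive for 0, where 17% were positive. DESeq2 called 6 negative and 0 positive, where over all genes it called 857 negative and 961 positive. At an unadjusted p under 0.05 by edgeR 7 were negative and 2 positive, a threshold at which all genes were not counted. The 6 were PRE8 of the alpha ring (-0.31), PRE3, PUP3 and PRE7 of the beta ring (-0.34, -0.40 and -0.45), RPT1 of the base (-0.44) and RPN11, the deubiquitinase of the lid (-0.26). Adjusted p by edgeR ran from 0.000148 for PRE7 to 0.031 for PRE3. The responses behind these differences were not alike. PRE8, PUP3 and RPT1 were called higher on shutoff in H3 WT and in no direction in H3 H113N. PRE7 was called lower in H3 H113N only, and PRE3 and RPN11 were called in neither. PUP3 went from 189.9, 195.4, 202.2 and 206.2 CPM in H3 H113N to 162.1, 178.7, 189.0 and 185.8 CPM in H3 H113N YFH1-off. The latter were all below the lowest H3 H113N library (-0.15, edgeR adjusted p = 0.0681). The median interaction of the 33 genes was -0.121, against 0.011 over all genes. Without replicate 2 of H3 WT 13 genes were called negative, while over all genes 1064 were negative and 1191 positive. Without replicate 2 of H3 H113N YFH1-off 3 were called negative, while over all genes 716 were negative and 940 positive. Without replicate 5 of H3 WT 6 were called negative and 2 positive, while over all genes 813 were negative and 927 positive. On library size alone 2 were called positive and 3 negative, while over all tested genes 1204 were positive and 623 negative. The median of the 33 relative to that of all genes was -0.133 under either scaling.

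With YFH1 on, H3 H113N and H3 WT differed in few proteasome genes. Of the 33, 3 were higher in H3 H113N (PUP3, PRE7 and RPN12), where 23% of all tested genes were higher, and 6 were lower (PRE5, PRE9, RPN1, RPT1, RPT3 and RPN6), where 23.2% were lower. The median log2 fold change was -0.041, against 0.0019 over all genes. PRE7 and PUP3 were higher by 0.46 and 0.25 on the log2 scale (edgeR adjusted p = 1.9e-06 and 0.00159), and these were the calls kept in all 22 alternatives. RPN12 libraries in H3 H113N stood at 120.8, 129.6, 123.6 and 126.4 CPM, all above H3 WT (0.23, edgeR adjusted p = 0.021). The counts changed with single libraries. Without replicate 2 of H3 WT 6 genes were higher and 2 lower and the median was 0.014, while over all genes 1530 were higher and 1468 lower. Without its replicate 3 it was 4 and 1, and over all genes 1313 and 1138. Without its replicate 5 it was 2 and 9 with a median of -0.086, and over all genes 1354 and 1194. Without replicate 2 or without replicate 3 of H3 H113N 3 were higher and 2 lower. Over all genes these fits called 1231 higher and 1202 lower, and 1231 higher and 1209 lower. On library size alone 5 were higher and 0 lower, while over all tested genes 1783 were higher and 913 lower. The median of the 33 relative to that of all genes was -0.044 under that scaling and -0.043 with TMM.

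With YFH1 off, more of the genes were lower in H3 H113N. Of the 33, 1 was called higher (RPT5, 0.15), where 27.2% of all tested genes were higher, and 15 were lower, where 25.2% were lower. The median log2 fold change was -0.144, against 0.0055 over all genes, and in 17 genes every H3 H113N YFH1-off library was below every H3 WT YFH1-off library, as in 26% of all tested genes. The 15 were 5 of the alpha ring (SCL1, PRE5, PRE8, PRE9 and PRE10), 3 of the beta ring (PRE2, PRE3 and PUP3), 3 of the base (RPN10, RPN13 and RPT1), 3 of the lid (RPN6, RPN7 and RPN11) and RPN14. RPT1 differed most, at -0.65 (SE 0.0725, edgeR adjusted p = 1.41e-06), which is 0.638 of its level in H3 WT YFH1-off. PRE3, the caspase-like cutting subunit, stood at 105.6, 121.3, 123.7 and 123.4 CPM in H3 H113N YFH1-off and 135.4, 158.5, 151.5 and 163.8 CPM in H3 WT YFH1-off, without overlap (-0.36, SE 0.0809, edgeR adjusted p = 0.00128). RPN6, a lid scaffold, differed by -0.30 (SE 0.0606, edgeR adjusted p = 0.000586). RPN14 was at 29.0, 32.6, 32.1 and 30.8 CPM in H3 H113N YFH1-off, below all of H3 WT YFH1-off (-0.26, edgeR adjusted p = 0.0047), and at 31.5 CPM or less in H3 H113N. The calls of RPT1, PRE3 and RPN6 held in all 22 alternatives. The balance of directions did not: on library size alone 5 of the 33 were called higher and 3 lower. Under that scaling 2295 of all tested genes were called higher and 811 lower, and the median of the 33 relative to that of all genes was -0.15 under either scaling.

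The genotype comparisons and the shutoff comparisons share groups of libraries, so their values for one gene are not independent of each other.

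**Figure D4:**
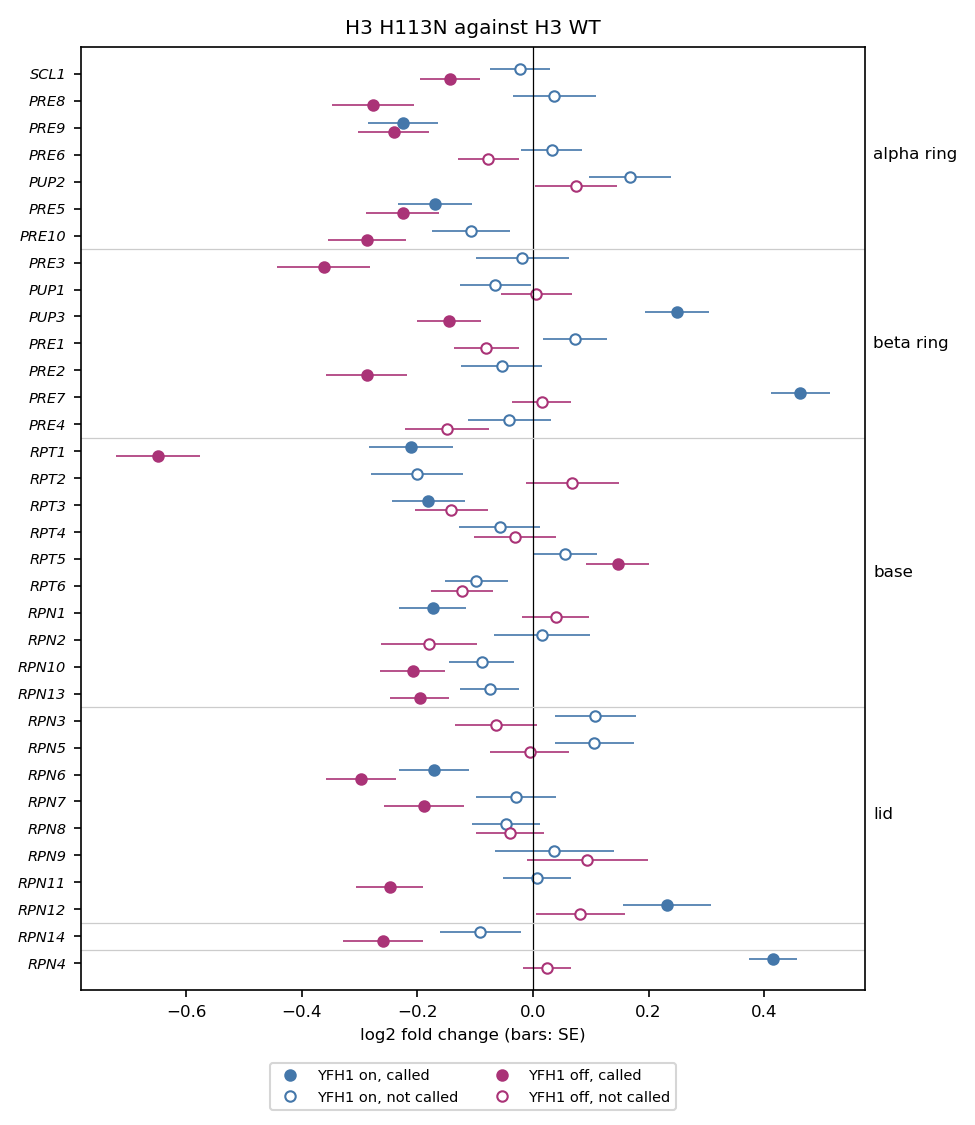
Log2 fold change of H3 H113N against H3 WT (x axis, bars SE) for the 33 proteasome genes and RPN4, grouped by subcomplex, with YFH1 on (blue) and off (purple); filled points are called at an adjusted p under 0.05. PRE7 and RPN4 stand highest with YFH1 on, at 0.46 and 0.42, and RPT1 lowest with YFH1 off, at -0.65.

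The subunits of one particle did not have one messenger RNA level. Per kilobase of coding length, the mean levels of the 32 subunits in H3 WT ran from 104 CPM per kb (RPN9) to 357 CPM per kb (PRE9), a ratio of 3.42. On this scale, among these 32 genes, the core particle stood above the regulatory particle by its medians. They were 278 CPM per kb in the alpha ring, 248 in the beta ring, 221 in the base and 192 in the lid. The same order held in H3 WT YFH1-off, at 282, 245, 199 and 167 CPM per kb. In H3 H113N the beta ring median, 285 CPM per kb, was above that of the alpha ring, 274, and the base and lid stood at 213 and 189. H3 H113N YFH1-off had 255, 248, 193 and 161 CPM per kb. RPN9 was the lowest subunit in all 4 groups. The highest was PRE9 in H3 WT, RPT1 in H3 WT YFH1-off at 383 CPM per kb, and PRE1 in H3 H113N and H3 H113N YFH1-off at 347 and 299. The ratio of highest to lowest was 5.04 in H3 WT YFH1-off, 3.25 in H3 H113N and 3.68 in H3 H113N YFH1-off. SEM1, which the name rule leaves out, stood at 349 CPM per kb in H3 WT and is not part of these orders. The orders are descriptions of group means, without a test. They hold for levels divided by coding length, which ran from 471 bases (RPN13) to 2982 bases (RPN1). Other effects of gene length on the counts were not tested.

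**Figure D5:**
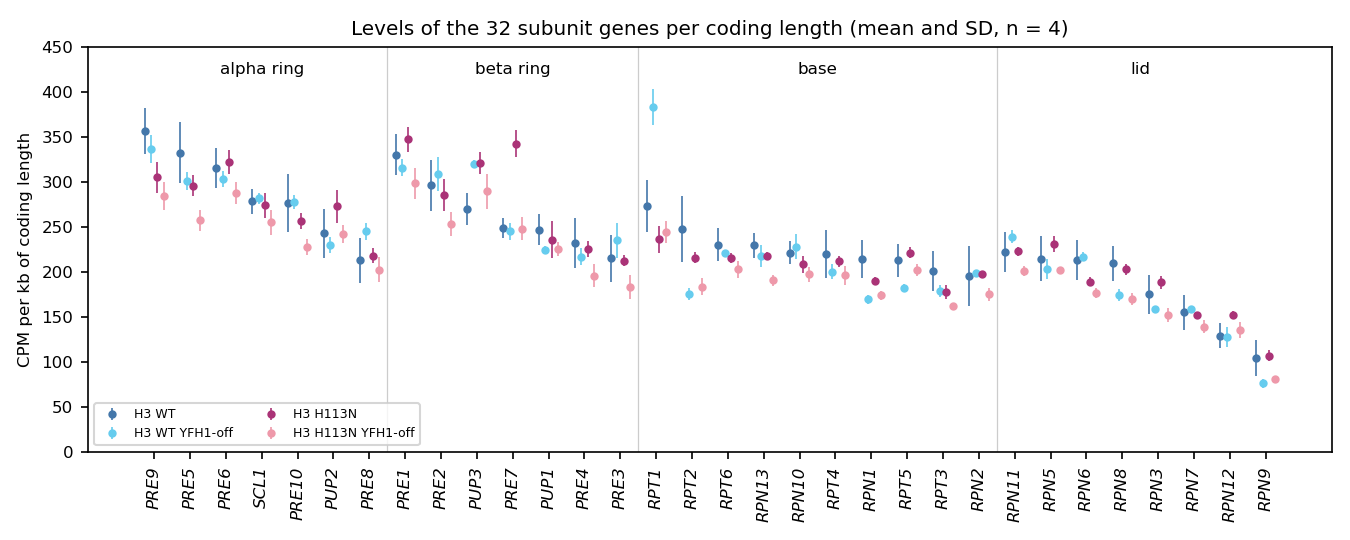
Mean CPM per kb of coding length (y axis, bars SD, n = 4) of the 32 subunit genes in the 4 groups, arranged by subcomplex and, within each, by level in H3 WT. RPN9 is lowest in every group, and RPT1 in H3 WT YFH1-off is the highest point at 383 CPM per kb.

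Genes that build, assist or feed the proteasome were taken from lists of known factors. Their counts stand beside the shares over all tested genes, which are 24.5% higher and 25% lower on shutoff in H3 WT and 11.8% higher and 8.73% lower in H3 H113N. Of 9 assembly factors, 2 rose and 2 fell on shutoff in H3 WT, and 2 fell in H3 H113N, UMP1 and HSM3, which lie on chromosome II. POC4, part of a chaperone pair of the alpha ring, rose most in H3 WT: it was at 12.2, 13.5, 15.6 and 14.5 CPM, and with YFH1 off at 23.6, 27.6, 23.3 and 25.1 CPM. Its log2 fold change was 0.83 (SE 0.105, edgeR adjusted p = 5.05e-06), against -0.0094 in H3 H113N (edgeR adjusted p = 0.966), an interaction of -0.84 (edgeR adjusted p = 0.000396). NAS6, a chaperone of the base, fell by 0.31 in H3 WT (edgeR adjusted p = 0.00179). Of 8 associated proteins, 3 fell in H3 WT. In H3 H113N edgeR called 0 of them, and DESeq2 called BLM10 lower (-0.14, adjusted p = 0.0275). At an unadjusted p under 0.05 by edgeR 3 were lower, a threshold at which all genes were not counted. Those that fell in H3 WT were BLM10, an alternative cap of the core particle (-0.24, edgeR adjusted p = 0.000648), ECM29, which binds the assembled particle (-0.49, edgeR adjusted p = 0.00807), and FUB1, which is found with the particle (-0.27, edgeR adjusted p = 0.0111). FUB1 had an interaction of 0.34 (edgeR adjusted p = 0.0363).

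Among 16 genes of ubiquitin and substrate delivery, 4 rose and 2 fell in H3 WT, and 1 rose and 2 fell in H3 H113N. The 2 that fell in H3 H113N, NPL4 and SHP1, lie on chromosome II, whose median log2 fold change in that comparison was -0.172; its part in the falls of these genes and of UMP1 and HSM3 was not tested. UBI4, the polyubiquitin gene induced by stress, was at 143.7, 105.7, 87.5 and 98.4 CPM in H3 WT and 189.1, 207.8, 225.1 and 232.4 CPM in H3 WT YFH1-off. In H3 H113N it was higher than in both, at 308.4, 276.1, 330.8 and 322.6 CPM, and with YFH1 off it was at 275.7, 270.0, 328.6 and 310.5 CPM. Its shutoff response was 0.97 in H3 WT (SE 0.122, edgeR adjusted p = 4.56e-06) and -0.063 in H3 H113N (edgeR adjusted p = 0.771), an interaction of -1.04 (edgeR adjusted p = 0.000173). UBI4 repeats within itself, and 18.2% of its words of 50 bases occur again in the genome, so its count is uncertain. HRD1, a ubiquitin ligase of the endoplasmic reticulum, rose by 0.64 in H3 WT (edgeR adjusted p = 8.53e-06).

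Of 7 genes known to control RPN4 or its protein, 2 rose in H3 WT, where 24.5% of all tested genes rose, and 1 fell in H3 H113N, where 8.73% fell. YAP1, the oxidative stress factor that activates RPN4, was at 188.4, 161.4, 153.1 and 153.3 CPM in H3 WT and 195.5, 198.8, 204.6 and 197.2 CPM in H3 WT YFH1-off. In H3 H113N it was at 193.4, 193.2, 179.3 and 188.2 CPM, and with YFH1 off at 165.8, 164.4, 168.4 and 166.8 CPM, below every H3 H113N library. Its log2 fold change was 0.28 in H3 WT and -0.18 in H3 H113N (edgeR adjusted p = 0.000691 and 0.0342), with an interaction of -0.46 (edgeR adjusted p = 0.000355). RPN4 had the same signs in these comparisons. With YFH1 off, every YAP1 library of H3 H113N was below every one of H3 WT, while RPN4 was not called (0.024, edgeR adjusted p = 0.664). With YFH1 on, where RPN4 was higher in H3 H113N, 2 of the 7 genes were called higher and 1 lower. Over all tested genes 23% were higher and 23.2% lower. PDR3 was higher and PDR1 lower. YAP1 also had a higher mean in H3 H113N, 189 CPM against 164 CPM in H3 WT, with overlapping libraries. A part of these genes in the RPN4 changes was not tested. HSF1, the heat shock factor that also activates RPN4, rose by 0.29 in H3 WT (edgeR adjusted p = 0.00132) and was not called in H3 H113N (0.13, edgeR adjusted p = 0.184).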

How the data were processed

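Messenger RNA was sequenced from 16 yeast libraries, grouped by their titles. Per the labels' protocols, hot acid phenol was used to extract RNA, DNA was digested and a KAPA mRNA Hyper Prep kit made the libraries. The authors deposited whole-number counts per gene for 6692 genes, and these deposited counts were tested. The submitters' processing notes name FastQC, cutadapt, HISAT2, featureCounts, DESeq2 and the build sacCer3; their roles, the gene annotation and whether reads were counted by strand are not given in the sources used here. The normalized signal deposited by the authors equals the counts divided by the size factors of DESeq2 (largest relative difference 5e-10); it served for gene names, beside the deposited adjusted p-values. No per-sample column was left unassigned (0).

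The test was edgeR 4.0.16 in R 4.3.3, with genes kept by filterByExpr (about 1.17 CPM in 4 libraries), TMM scaling, and a quasi-likelihood fit of 1 mean per group to all 16 libraries with 5 contrasts, adjusted by Benjamini-Hochberg over 5876 genes. DESeq2 1.42.0 was an alternative, as were other scalings, no filter, the compared groups alone, a replicate block and each library left out. The edgeR step was tested on simulated data.

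Each of the 24 replicate pairs differed beyond the noise of sampling (chi-square per degree of freedom 2.905 to 74.69); nothing states that they were separate cultures, so p-values measure the spread between these libraries, which may be technical. Floors from counts cover counting error only. Over all genes, deviations of same-numbered libraries from their group means correlated by -0.173 to 0.228, and the main fit did not pair libraries by number. The sum of the proteasome genes did follow the number within each group. It rose from replicate 2 to 5 in every group but H3 WT, where it fell, and the cause was not tested. The 300 bases before each start codon came from RefSeq R64 (sacCer3), which matched 6008 of the gene identifiers. No listed gene overlaps another RefSeq gene. Overlap with counted genes that RefSeq does not hold was not checked. The 33 genes and the pathway lists were chosen with earlier results of these data known. By a fixed rule, values per library are given for RPN4 and, in each subcomplex, for the largest and smallest change on shutoff in H3 WT and those against the majority; from each pathway list the 2 smallest adjusted p in H3 WT and the smallest interaction p are named. PRE3, RPN1, RPN3, RPN8 and other genes given values beyond it were chosen after their values were seen.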

Additional observations from a re-analysis of the deposited data

Results flagged for a closer look

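RPN4 in replicate 3 of H3 WT YFH1-off was at 129.579 CPM, apart from the other 3 libraries of that group at 134.2 to 135.0 CPM; 1 of 52 groups of 4 libraries met this criterion, which chance meets in about 1 in 20.

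For the following genes the response to YFH1 shutoff differed between H3 H113N and H3 WT by edgeR's test of the interaction (BH-adjusted p under 0.05), given as a log2 fold change. Among the proteasome genes the interaction was -0.3135 for PRE8, -0.344 for PRE3, -0.395 for PUP3, -0.4476 for PRE7, -0.4367 for RPT1 and -0.2552 for RPN11. It was -0.3919 for RPN4. The interaction was called for 6 of the 33 proteasome genes and for 1808 of all 5876 tested genes. Among pathway genes it was called for 2 of 9 assembly factors, 1 of 8 associated proteins and 1 of 7 genes that control RPN4. Of 16 genes of ubiquitin and substrate delivery, 6 were called. Those named by the rule had -0.8434 for POC4, 0.3388 for FUB1, -1.0371 for UBI4, -0.3949 for HRD1 and -0.4587 for YAP1. The other pathway genes called were RAD23, UFD4, SSM4, UMP1 and SHP1. UMP1 and SHP1 lie on chromosome II, as does PRE7. YFH1 itself had 0.8384.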

How the results depend on the processing

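Every count of called proteasome genes and each RPN4 value was recomputed under 22 alternatives (21 for the interaction). With library size only as the scaling, 20 genes were called for the shutoff in H3 WT, 21 in H3 H113N, 5 between genotypes while YFH1 was on and 8 while it was off, and RPN4 moved to 0.0929 for the shutoff in H3 WT and 0.152 for the genotypes with YFH1 off; the median of all genes moved to between -0.107 and 0.133 under it. With only the groups compared, 23 genes were called for the shutoff in H3 H113N and 4 for the genotypes with YFH1 on. Over all genes these fits called 720 higher and 761 lower, and 1048 higher and 1025 lower. The DESeq2 Wald test called 13 for the shutoff in H3 H113N, and over all genes 682 higher and 569 lower. Leaving out one library at a time gave 8 to 15 genes for the shutoff in H3 WT, 6 to 19 in H3 H113N, 5 to 11 between genotypes while YFH1 was on, 12 to 20 while it was off, and 3 to 13 for the interaction. The counts over all genes moved too. In those fits 1298 to 1621 were higher and 1364 to 1604 lower for the shutoff in H3 WT. In H3 H113N they were 533 to 960 and 405 to 689. Between genotypes they were 1231 to 1530 and 1138 to 1468 while YFH1 was on. While it was off they were 1498 to 1796 and 1318 to 1675. For the interaction 847 to 1191 were positive and 716 to 1064 negative. The cause of these moves was not tested. The replicate block gave 9, 6, 8, 16 and 5 genes. Over all genes it called 1473 higher and 1471 lower, 707 and 511, 1356 and 1360, 1605 and 1483, and 984 and 818. No named value that was called changed sign. Calls kept in all alternatives numbered 6 of 10, 6 of 8, 2 of 9, 3 of 16 and 3 of 6 in the order of the comparisons above. Counts of these genes were far above the floor of 3 counts, and H3 WT had the widest spread of the 4 groups.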
